A study of Mus musculus with 28 samples.

Results

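Expression of 39 genes of the NRF2, glutathione and antioxidant system was compared between polyclonal mouse kidney cells, a monoclonal line grown from them and 5 subclones of that line. The members were named by symbol and comprise the transcription factor NRF2 (gene Nfe2l2) with its inhibitor Keap1, the classical NRF2 targets, the enzymes of glutathione, thioredoxin and NADPH metabolism, the ferritins, the glutathione transferases, the peroxide- and superoxide-removing enzymes and the exporters of conjugates. All 39 were found by Ensembl identifier among the 45706 identifiers that the deposited tables hold.

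RNA sequencing had been performed on 28 libraries of wild-type mIMCD-3 cells, an epithelial line derived from the inner medullary collecting duct of a mouse carrying SV40 early region genes. The 7 groups of 4 libraries were polyclonal wild-type cells, monoclonal WT5, which was grown from a single sorted cell, and subclones 1 to 5, each grown from a single cell of WT5. None of the groups carried an engineered edit or received a treatment, so WT5 and every subclone stand for 1 clone each. The polyclonal cells were sequenced as single-end reads and the monoclonal cells as longer paired-end reads at another time, and therefore the line and the sequencing type cannot be told apart in the comparison of WT5 with polyclonal cells. The subclones were deposited in a separate table from WT5. Any shift common to all 5 subclones and the way the second table was made therefore cannot be told apart. The methods call the 4 libraries of a group biological replicates while a figure legend calls them technical, so that p-values here measure the spread between these libraries, which may be technical.

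NRF2 is a transcription factor that KEAP1 marks for degradation in unstressed cells. Oxidants and electrophiles release it, and it then binds antioxidant response elements near genes that make glutathione, conjugate and export electrophiles, reduce peroxides, store iron and supply NADPH. Much of its regulation acts on the protein, which RNA sequencing does not measure. The renal tubule depends on this system, as it handles oxidants and conjugates in the urine.

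The values were TPM, transcript abundances scaled to the length of the gene and to a fixed total in each library. They keep no depth, and how many reads lie behind a value is unknown. Between 18681 and 19272 genes were above 0 TPM in the polyclonal libraries, between 16318 and 16536 in WT5 and between 16270 and 17004 in the subclones. Across genes, which are not independent replicates, the libraries of a group had correlations of 0.983 to 0.990. Of 16 markers of collecting duct epithelium, 9 to 12 reached 1 TPM in each group, among them the keratins Krt8 and Krt18, Epcam and Pax8, but the vasopressin-regulated water channel Aqp2 was listed at 0 in all libraries. The summed marker level was 1911 to 2212 TPM in polyclonal cells, 3326 to 3409 in WT5 and 2082 to 2636 in the subclones, a sum carried mostly by Krt8, Krt18 and Epcam. Other markers of the list lay the other way, as the vasopressin receptor Avpr2 averaged 10.57 TPM in polyclonal cells and 0.06 in WT5, Gata3 4.08 and 0.04, Scnn1a 1.1 and 0.57, and Cdh1 144.7 and 97.6. The part of these markers in the results was not tested. Markers of proximal tubule, thick ascending limb, intercalated cells, fibroblasts, endothelium and leukocytes each summed to at most 13.3 TPM in any library.

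Because the members are linked by a shared regulator, their promoters were searched for the core of the antioxidant response element, TGACNNNGC, on both strands. RefSeq promoter windows on GRCm38.p6, from 250 bases before to 50 bases after a transcription start, were at hand for 34 of the 39 members. Hmox1, Gclc, Gsr, Gsta4 and Abcc1 had no window and were not searched. The core lay in 14 of their 45 windows (31.1%), in 13 genes, and in 4071 of all 32851 windows (12.4%). Such a match is a description of the letters and not a bound site, and it can overlap the AP-1 motif TGACTCA, as it does in Me1 and Prdx1. The matches below belong to Nfe2l2 itself, to members whose levels are described in detail and, for Abcc4, to 2 alternative starts. Each is written 5′ to 3′ on the strand of the gene, with the core or its reverse complement in capitals.
Nfe2l2 (chr2:75704875-75704913): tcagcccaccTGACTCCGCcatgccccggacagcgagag
Srxn1 (chr2:152105542-152105570): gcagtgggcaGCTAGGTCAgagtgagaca
Me1 (chr9:86695902-86695930): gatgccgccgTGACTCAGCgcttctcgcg
Gclm (chr3:122245403-122245451): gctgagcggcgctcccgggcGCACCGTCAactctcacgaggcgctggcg
Txnrd1 (chr10:82859094-82859142): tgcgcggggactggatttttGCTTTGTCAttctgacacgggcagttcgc
Prdx1 (chr4:116685446-116685494): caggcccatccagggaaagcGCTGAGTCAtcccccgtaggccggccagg
Gsta3 (chr1:21240444-21240492): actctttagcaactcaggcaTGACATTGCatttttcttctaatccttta
Abcc4 (chr14:118706226-118706254): gccccgagagGCGGGGTCAgggcgggccg
Abcc4 (chr14:118676936-118676964): aataatctcgTGACTCTGCcgtggtggat
The match lies after the start in Srxn1, spans it in Me1 and lies before it in the other windows shown.

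WT5 and polyclonal cells were compared to ask how far a wild-type clone departs from the population it came from. In WT5, 7 members were higher and 4 were lower than in polyclonal cells by more than 2-fold at an adjusted p below 0.01, out of 36 members that were above 0 TPM in all 8 libraries (30.6%). The percent of all 13723 genes called by the same rule was 23.2, with 11.3 higher and 12 lower. The members that rose were Ftl1, Gstm1, Gsta3, Abcc4, Srxn1, Hmox1 and Me1, and those that fell were Gsta4, Gpx3, Sod2 and Prdx1. At the adjusted p alone 14 members were higher and 9 lower (63.9%), against 65.4% of all genes, 31.1% higher and 34.3% lower. On the log2 scale the members had a median difference of 0.18 and all genes one of -0.05, and their median sizes without sign were 0.525 and 0.524.

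The test was limma on log2(TPM) after removal of each library's median, with Benjamini-Hochberg adjustment over all genes tested, and every log2 difference and fold change given here is on that scale unless it is called a ratio of TPM. Without removal of the medians, all genes together stood 0.24 higher in WT5 on the log2 scale. The count of members called was then again 11 but split into 9 higher and 2 lower, because Nfe2l2 and Gclc passed 2-fold and Sod2 and Prdx1 did not. Of all 13723 genes, 2327 were then called higher and 1174 lower, so all genes moved the same way. The study required in addition a z-score difference above 1, and by that rule 1 member was called, Ftl1, against 5.43% of all genes. The median-centred values of the groups did not overlap for 27 of the 36 members (75%), 16 of them higher and 11 lower, against 71.6% of all genes.

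**Figure D1:**
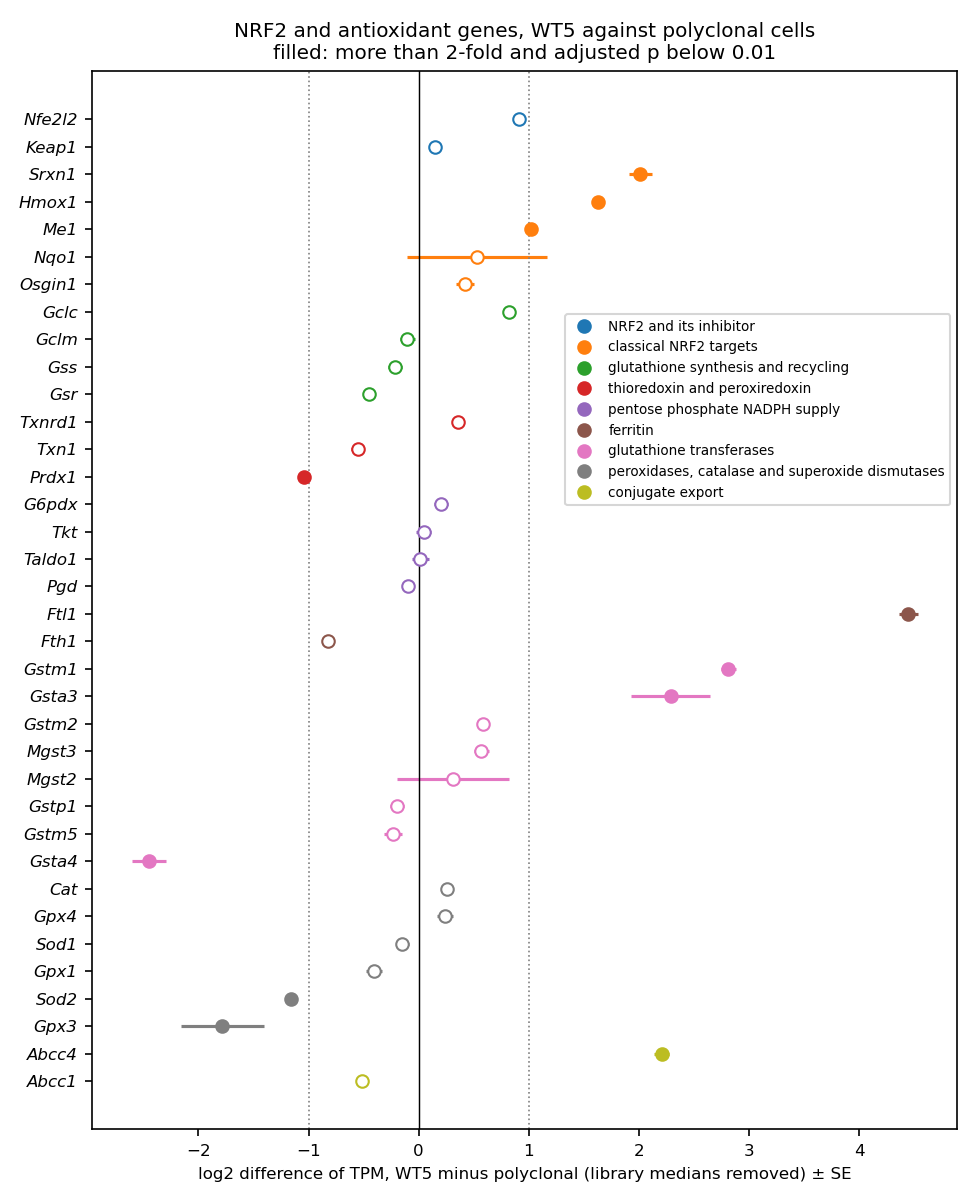
Log2 difference of WT5 minus polyclonal cells for the 36 members tested, as limma estimates with standard errors (4 libraries a group), coloured by role; filled points passed an adjusted p below 0.01 and 2-fold (dotted lines). The 7 filled points on the right run from Me1 at 1.02 to Ftl1 at 4.45, and the 4 on the left from Prdx1 at -1.05 to Gsta4 at -2.45.

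Nfe2l2 itself was at 43.8, 42.4, 42.8 and 42.9 TPM in the polyclonal libraries and at 92.6, 102.7, 104.9 and 94.6 TPM in WT5. The groups lay far apart, with a ratio of TPM of 2.30 and a log2 difference of 0.91 (SE 0.04, adjusted p = 7.21e-07), just under 2-fold. Keap1, the adaptor that brings NRF2 to its ubiquitin ligase, was at 23.2, 26.8, 27.3 and 24.5 TPM and at 33.7, 34.6, 34.5 and 34.8 TPM in the same order of groups. Every WT5 library exceeded every polyclonal library in Keap1 TPM, but the difference of 0.15 (SE 0.06) missed the threshold with adjusted p = 0.0414.

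Among the 5 members grouped here as classical NRF2 targets, 3 rose by over 2-fold, against 11.3% of all genes. Hmox1, which breaks down heme, was at 14.8, 15.1, 14.4 and 14.8 TPM in polyclonal cells and at 55.0, 56.4, 57.0 and 55.1 TPM in WT5. The spread within each group was small beside the 3.10-fold difference (log2 1.63, SE 0.04, adjusted p = 3.11e-08). Srxn1, which repairs overoxidized peroxiredoxins, went from 3.66, 3.24, 4.79 and 3.57 TPM to 17.5, 18.9, 19.9 and 18.4 TPM. This was a 4.04-fold difference without overlap (log2 2.01, SE 0.10, adjusted p = 1.19e-06). Me1, the cytosolic malic enzyme that makes NADPH, was at 16.6, 14.98, 16.4 and 17.2 TPM and at 39.3, 41.1, 41.3 and 39.8 TPM in WT5. Its 2.03-fold difference (log2 1.02, SE 0.05, adjusted p = 6.60e-07) was barely past the threshold and fell to 0.99 without polyclonal replicate 2.

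Of the 50-base stretches of Me1, 28.3% also occur in other genes, and 3.59% occur in the processed pseudogene Gm7329, of which they make up 85.1%. That pseudogene was listed at 5.82 to 7.29 TPM in the polyclonal libraries, at 0 in 3 WT5 libraries and at 52.5 TPM in WT5 replicate 4, so the sum of both genes was 20.8 to 24.5 TPM in polyclonal cells and 39.3 to 92.3 TPM in WT5. Osgin1, an oxidative stress-induced growth inhibitor, averaged 20.4 ± 1.73 TPM (SD, n = 4) and 33.5 ± 3.04 TPM, and its rise of 0.42 passed the p threshold (adjusted p = 0.00195) but not 2-fold, at 0.71 with the medians kept.

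Nqo1, the quinone reductase most often used to read NRF2 activity, was nearly silent. It was listed at 0.16, 0.27, 0.03 and 0.10 TPM in polyclonal cells and at 0.15, 0.16, 0.23 and 0.23 TPM in WT5. The groups overlapped, and the difference of 0.53 (SE 0.64) had adjusted p = 0.467. In the subclones Nqo1 was at 0.03, 0.14, 0.05 and 0.03 TPM in subclone 1, at 0, 0.06, 0.08 and 0.13 in subclone 2, and at 0.25, 0.18, 0 and 0.06 in subclone 3. The libraries of subclone 4 were at 0.62, 0.65, 0.96 and 0.63 TPM and those of subclone 5 at 0.2, 0.22, 0.19 and 0.11. Every library of subclone 4 lay above all others in the series. As Nqo1 was at 0 in 2 subclone libraries, it was not tested between subclones.

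Glutathione synthesis and recycling showed no member past 2-fold. Gclc, the catalytic subunit of the rate-limiting glutamate-cysteine ligase, was at 11.6, 11.2, 11.8 and 11.9 TPM in polyclonal cells and at 23.8, 25.4, 25.5 and 25.4 TPM in WT5. The rise of 0.82 (SE 0.03, adjusted p = 4.69e-07) left a wide gap between the groups. Gclm, the modifier subunit of the same enzyme, was at 108.4, 120.9, 118.1 and 108.4 TPM and at 117.6, 130.3, 130.1 and 141.8 TPM. Here the TPM ranges overlapped and the difference was -0.10 (SE 0.07, adjusted p = 0.191), or 0.19 with the medians kept. Gsr, which reduces oxidized glutathione, fell by 0.45 (adjusted p = 1.67e-05, from 178 ± 3.42 to 159 ± 3.54 TPM), and by 0.16 with the medians kept. Gss, the glutathione synthetase, differed by -0.22 without passing the threshold (adjusted p = 0.0136), or by 0.07 with the medians kept.

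The thioredoxin branch moved in both directions. Txnrd1, which reduces thioredoxin with NADPH, was at 79.5, 79.8, 83.6 and 73.1 TPM in polyclonal cells and at 120.8, 122.9, 126.2 and 124.8 TPM in WT5. It rose by 0.36 (SE 0.04, adjusted p = 0.000148) with no overlap of TPM, and by 0.65 with the medians kept. Txn1, thioredoxin itself, fell by 0.55 (adjusted p = 5.01e-05, from 419 ± 17.4 to 348 ± 13.7 TPM), or by 0.26 with the medians kept. Prdx1, an abundant thioredoxin-dependent peroxidase, was at 838, 804, 869 and 773 TPM and at 458, 492, 505 and 490 TPM, a 2.07-fold decrease (log2 -1.05, SE 0.04, adjusted p = 3.14e-07). The lowest polyclonal library stood well above the highest of WT5. Its processed pseudogene Gm21399, which holds 5.44% of its stretches, averaged 39.9 TPM in polyclonal cells and 0.243 TPM in WT5. The 4 genes of pentose phosphate NADPH supply, G6pdx, Pgd, Taldo1 and Tkt, had log2 differences between -0.10 and 0.21, and none passed the p threshold.

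Ftl1, the iron-storing light subunit, was at 13.6, 16.1, 15.6 and 13.4 TPM in polyclonal cells and at 335, 402, 412 and 413 TPM in WT5. This 21.8-fold difference (log2 4.45, SE 0.09, adjusted p = 1.24e-08) was the largest among the members tested. Yet 58.4% of the 50-base stretches of Ftl1 also occur in other genes, which reads cannot always tell apart. Of these genes, Ftl1-ps1 and Ftl2-ps were much higher than Ftl1 itself, Ftl1-ps1 at 1142 ± 85.0 TPM in polyclonal cells and 1466 ± 71.4 in WT5, and Ftl2-ps at 1355 ± 91.7 and 1317 ± 48.7. Ftl1-ps2 averaged 17.1 TPM in polyclonal cells and 0.218 in WT5, and Gm15590 2.12 TPM in polyclonal cells while it was listed at 0 in all 4 WT5 libraries. Summed with its copies, Ftl1 came to 2407, 2704, 2650 and 2366 TPM in polyclonal cells and to 2996, 3265, 3310 and 3125 TPM in WT5. After removal of the medians the difference of the sums was 0.04 with adjusted p = 0.554, so that the call was lost. In TPM, with the medians kept, every WT5 sum exceeded every polyclonal sum. Single-end and paired-end reads were assigned among these copies in separate runs, and the part of read type in the split was not tested. Fth1, the heavy chain with 1.59% of shared stretches, fell by 0.82 (adjusted p = 1.35e-06, from 1629 ± 65.0 to 1127 ± 14.3 TPM), or by 0.53 with the medians kept.

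**Figure D2:**
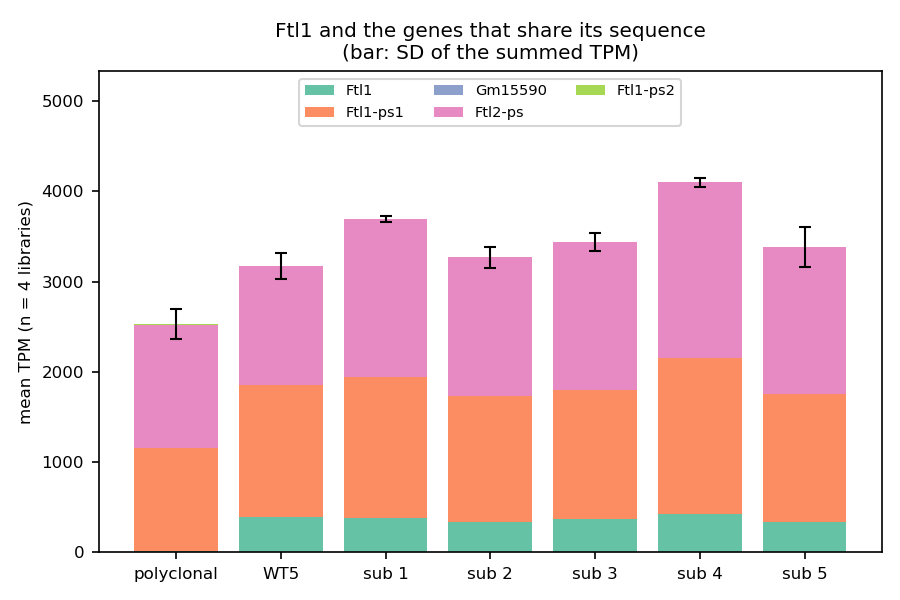
Mean TPM of Ftl1 and the 4 genes that share its sequence, stacked by group (n = 4 libraries a group), with the SD of the summed TPM as bars. The Ftl1 segment is 14.7 TPM in polyclonal cells and 331.7 to 424.8 TPM elsewhere, while the whole column is 2532 TPM in polyclonal cells, 3174 in WT5 and 3268 to 4099 in the subclones.

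The glutathione transferases, which join glutathione to electrophiles, held members called in both directions. Gstm1, a mu-class enzyme, was at 42.3, 50.7, 44.9 and 43.9 TPM in polyclonal cells and at 369, 386, 420 and 385 TPM in WT5. That 7.03-fold rise (log2 2.81, SE 0.07, adjusted p = 3.18e-08) was 2.76 on the log2 scale when Gstm1 was summed with its copy Gstm2-ps1. Gsta3, an alpha-class enzyme, went from 0.22, 0.22, 0.50 and 0.52 TPM to 1.93, 2.59, 1.39 and 2.31 TPM, a 4.89-fold rise at a low level (log2 2.29, SE 0.36, adjusted p = 0.000601). Gsta4, the alpha-class enzyme that handles the lipid peroxidation product 4-hydroxynonenal, went the other way, from 7.99, 7.33, 8.78 and 7.48 TPM to 1.88, 1.97, 2.10 and 1.24 TPM. This was a 5.46-fold decrease with no overlap (log2 -2.45, SE 0.16, adjusted p = 4.09e-06).

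Gstm2 and Mgst3 rose by less than 2-fold, by 0.59 (adjusted p = 2.65e-05) and 0.57 (adjusted p = 0.000141). Gstm5 (-0.23, adjusted p = 0.0271) and Gstp1 (-0.20, adjusted p = 0.0235) did not pass the threshold, and both were positive, 0.06 and 0.09, with the medians kept. Gstp1, the most abundant transferase, averaged 572 and 608 TPM, and 33.7% of its stretches are shared with Gstp2 and Gstp-ps. Mgst2, a microsomal transferase, differed by 0.31 (adjusted p = 0.594). Gsta1, Gstt1 and Mgst1 were not tested because each was listed at 0 in some of the 8 libraries, and none of them exceeded 0.85 TPM in any library.

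Of the peroxidases and dismutases, 2 fell by over 2-fold and none rose by as much. Sod2, the mitochondrial manganese superoxide dismutase, was at 37.8, 39.1, 40.9 and 38.4 TPM in polyclonal cells and at 20.98, 22.1, 20.7 and 21.6 TPM in WT5. The decrease was 2.24-fold (log2 -1.16, SE 0.04, adjusted p = 1.90e-07), and -0.87 with the medians kept. Of its stretches 15.97% also occur in Rps6ka2, and the difference of the summed genes was -0.88 (adjusted p = 3.74e-07), under 2-fold. Rps6ka2, a protein-coding gene, itself averaged 0.9975 TPM in polyclonal cells and 5.175 TPM in WT5. Gpx3, a secreted glutathione peroxidase, was at 0.97, 0.63, 0.91 and 0.55 TPM and at 0.42, 0.13, 0.28 and 0.32 TPM. Although its libraries did not overlap, its difference of -1.78 (SE 0.38, adjusted p = 0.00315) lost its call without polyclonal replicate 1 (adjusted p = 0.0110) or replicate 3 (adjusted p = 0.0106). Gpx1, the main cytosolic glutathione peroxidase, fell by 0.41 (adjusted p = 0.00122), but by 0.12 with the medians kept, and its TPM overlapped, at 186.7 to 218.8 in polyclonal cells and 178.5 to 199.5 in WT5. Cat, catalase, rose by 0.26 (adjusted p = 0.00183), or by 0.55 with the medians kept. Gpx4, which reduces lipid hydroperoxides, had a difference of 0.24 (adjusted p = 0.0186), with 34.7% of its stretches shared, and Sod1, the copper-zinc dismutase, one of -0.15 (adjusted p = 0.0561) or 0.14 with the medians kept.

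The exporters of glutathione conjugates and other organic anions parted as well. Abcc4 was at 7.23, 6.42, 7.53 and 7.90 TPM in polyclonal cells and at 40, 42.9, 43.8 and 37.5 TPM in WT5. Its 4.62-fold rise (log2 2.21, SE 0.07, adjusted p = 1.18e-07) kept the groups far apart. Abcc1 fell by 0.52 (adjusted p = 4.42e-05, from 41.6 ± 2.22 to 35.6 ± 1.59 TPM), or by 0.23 with the medians kept.

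Further genes of the same pathways were read from 6 lists with 109 symbols, of which 90 were tested in this comparison. Of these 90, 10 were higher and 13 lower by over 2-fold, against 11.3% higher and 12% lower among all genes, and their median log2 difference was -0.22. At the adjusted p alone 22 were higher and 42 lower, against 31.1% and 34.3% of all genes. By list, these were 5 higher and 4 lower of 14 NRF2 partners and adaptors, 2 and 2 of 6 exporters, 3 and 7 of 14 glutathione enzymes and 2 and 4 of 9 transferases. Of 26 other targets and detoxification enzymes 9 were higher and 12 lower, and of 21 other thioredoxins, peroxiredoxins and sulfoxide reductases 1 was higher and 13 lower. The largest rises were those of Htatip2, an oxidoreductase (26.2-fold, from 0.390 ± 0.195 to 11.1 ± 0.594 TPM), Ggt1, the gamma-glutamyltransferase that breaks down extracellular glutathione (12.6-fold, from 0.230 ± 0.162 to 2.885 ± 0.385 TPM), and Abcg2, an exporter (8.17-fold, from 0.825 ± 0.170 to 8.16 ± 1.09 TPM). The largest falls were those of Gsto1, an omega-class transferase (5.28-fold, from 334 ± 18.0 to 77.6 ± 6.66 TPM), Sesn1, a sestrin (4.46-fold, from 50.9 ± 2.67 to 13.96 ± 0.964 TPM), and Cbr3, a carbonyl reductase (3.32-fold, from 34.8 ± 3.03 to 12.9 ± 1.76 TPM).

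The subclones were compared with WT5 to ask how far cells drift from a parent that was itself a clone. Of the 35 members tested, 8 of them glutathione transferases, Gsta3 was called in subclones 4 and 5 and Gstm1 in subclone 5. These calls were 2.86% of members in subclone 4 and 5.71% in subclone 5. Subclones 1, 2 and 3 had 0 members called by limma and 0 by the unequal-variance test, while 20, 19 and 17 of their members had an unadjusted limma p below 0.05. The share of all genes at that unadjusted level was not taken, so these counts are not read as a trait of the members. By the unequal-variance test 1 member each was called in subclones 4 and 5, and the share of all genes by that test is not given. The percent of all 13860 genes called by limma was 3.12, 2.68, 3.97, 5.32 and 3.67 in subclones 1 to 5. At the adjusted p alone 14, 13, 9, 15 and 14 members passed, or 40%, 37.1%, 25.7%, 42.9% and 40%, against 26.4%, 27.7%, 18.6%, 37.1% and 23% of all genes. All 5 comparisons use the same WT5 libraries and so depend on each other.

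Hmox1 and Keap1 were lower and Gstm1 was higher than WT5 at the adjusted p alone in every subclone, which makes 3 of 35 members (8.57%) against 7.32% of all genes. Hmox1 was at 32.9, 32.4, 31.4 and 29.3 TPM in subclone 1, at 33.1, 26.6, 30.1 and 33.6 in subclone 2, and at 32.0, 26.9, 29.6 and 29.2 in subclone 3. It was at 28.9, 33.8, 31.8 and 29.3 TPM in subclone 4 and at 25.2, 30.7, 33.5 and 35.9 in subclone 5. All 20 libraries lay between the polyclonal and the WT5 levels, with differences from WT5 between -0.83 and -0.74. Keap1 was at 29.4, 29.2, 27.2 and 30.1 TPM in subclone 1, at 28.8, 25.1, 26.9 and 27.5 in subclone 2, and at 28.5, 23.8, 26.4 and 29.6 in subclone 3. In subclone 4 it was at 28.2, 28.7, 28.4 and 29.7 TPM and in subclone 5 at 21.2, 23.4, 24.7 and 26.9. Each stood below the lowest WT5 library of 33.7 TPM, and the differences ran from -0.42 to -0.17. Gpx1 was lower by 0.46 to 0.56 and passed the p threshold in 4 subclones. Nfe2l2 was at 99.9, 98.9, 95.8 and 93.3 TPM in subclone 1, at 102.6, 87.7, 95.8 and 99.6 in subclone 2, and at 108.0, 91.4, 99.0 and 101.3 in subclone 3. The libraries of subclone 4 were at 92.7, 105.0, 106.9 and 99.4 TPM and those of subclone 5 at 77.8, 99.3, 100.1 and 104.5. They overlapped WT5, and the differences of 0.01 to 0.13 passed the threshold in no subclone.

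Gstm1 was at 542, 502, 483 and 508 TPM in subclone 1, at 509, 460, 469 and 527 in subclone 2, and at 658, 569, 589 and 658 in subclone 3. It was at 621, 700, 738 and 705 TPM in subclone 4 and at 639, 837, 826 and 848 in subclone 5. Every subclone library exceeded the 420 TPM of the highest WT5 library. The differences ran from 0.39 in subclone 2 to 1.11 in subclone 5 (SE 0.05, adjusted p = 3.35e-05), and the latter alone passed 2-fold.

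Gclc was at 27.2, 27.7, 26.4 and 28.02 TPM in subclone 1, at 27.3, 22.8, 24.1 and 25.3 in subclone 2, and at 29.2, 24.02, 26.9 and 30.2 in subclone 3. In subclone 4 it was at 30.2, 30.6, 29.7 and 30.1 TPM and in subclone 5 at 26.2, 34.0, 32.0 and 35.6. It was higher than WT5 past the p threshold in all subclones but subclone 2. Gclm was at 110.1, 122.2, 113.8 and 100.02 TPM in subclone 1, at 116.5, 109.4, 118.7 and 115.0 in subclone 2, and at 114.2, 98.5, 118.0 and 107.0 in subclone 3. The libraries of subclone 4 were at 133.4, 131.4, 137.6 and 136.3 TPM and those of subclone 5 at 85.9, 102.8, 102.7 and 110.4. It passed the threshold against WT5 in subclone 5, where it was lower by 0.27 (adjusted p = 0.00831). Srxn1 was at 17.8, 16.3, 17.6 and 15.6 TPM in subclone 1, at 16.5, 15.3, 16.2 and 16.2 in subclone 2, and at 13.3, 16.3, 14.9 and 14.1 in subclone 3. In subclone 4 it was at 19.0, 20.2, 22.1 and 18.1 TPM and in subclone 5 at 14.6, 18.8, 19.4 and 18.7. Subclone 2 was lower than WT5 past the p threshold (-0.16, adjusted p = 0.00839), and the other subclones did not pass it. Txnrd1 was at 101.5, 102.8, 93.7 and 103.0 TPM in subclone 1, at 101.2, 82.8, 94.2 and 94.7 in subclone 2, and at 92.8, 76.0, 85.8 and 92.9 in subclone 3. The libraries of subclone 4 were at 101.9, 111.0, 109.7 and 109.1 TPM and those of subclone 5 at 94.7, 115.3, 116.9 and 122.0. It was lower than WT5 past the p threshold in subclones 1, 2 and 3, none of whose libraries reached the lowest WT5 value of 120.8 TPM.

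**Figure D3:**
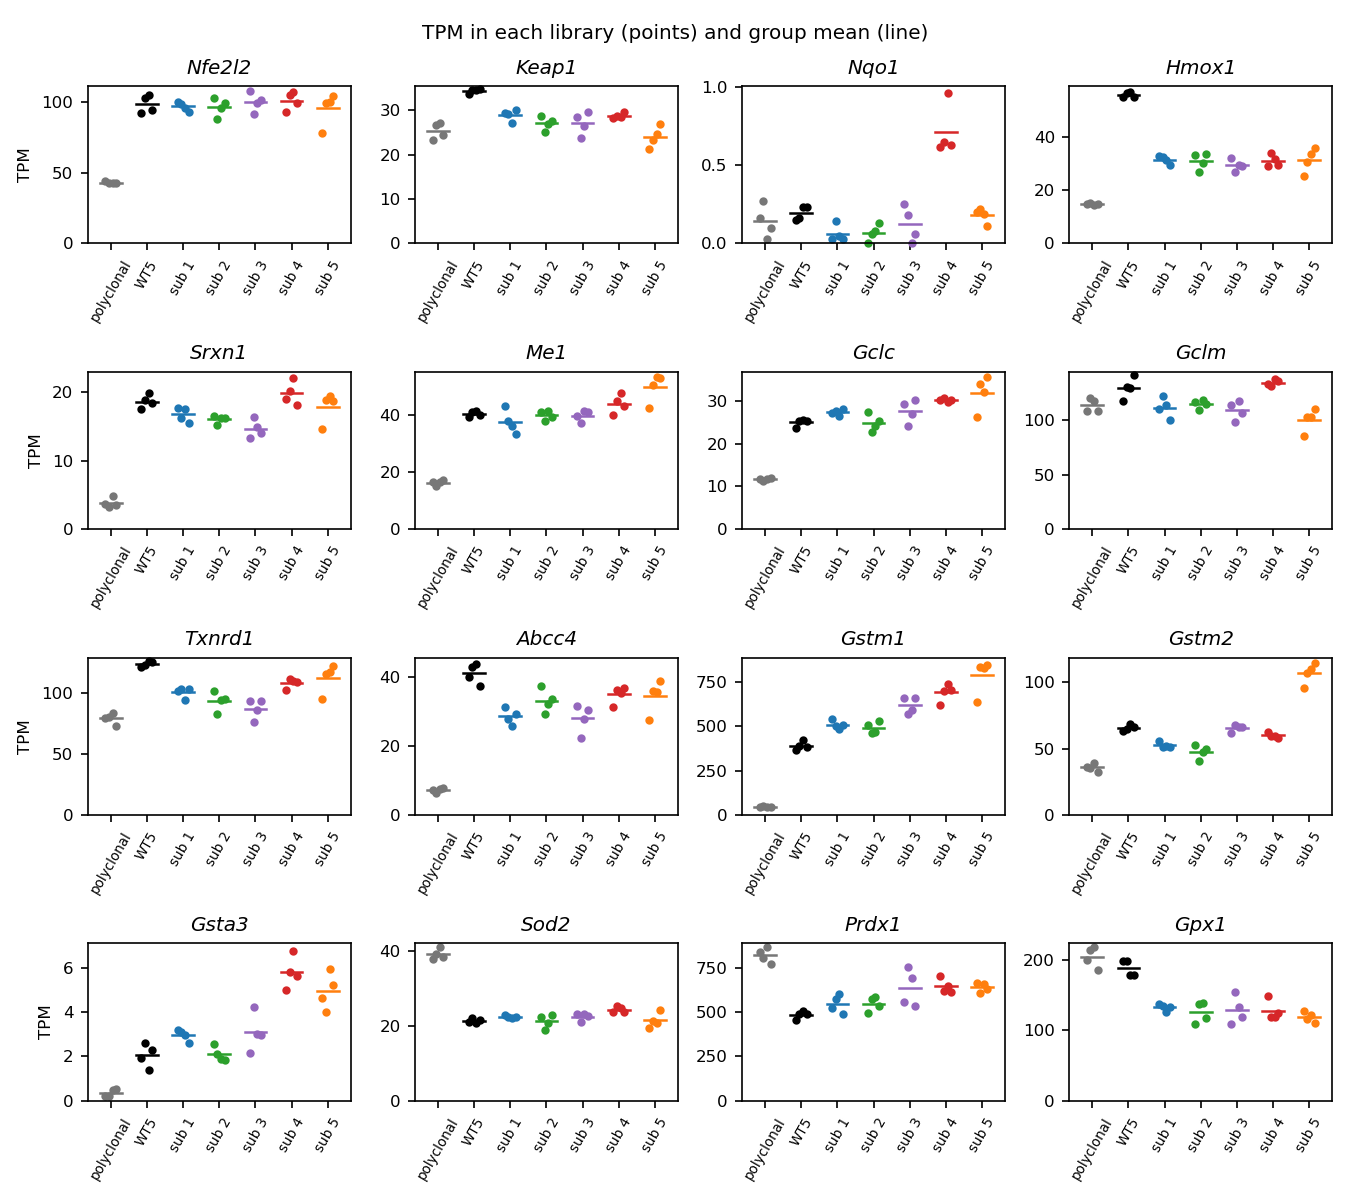
TPM of 16 members in each of the 28 libraries (points) with the mean of each group (lines), on linear axes from 0 that differ between panels. Hmox1 is at 14.4 to 15.1 TPM in polyclonal cells, 55.0 to 57.0 in WT5 and 25.2 to 35.9 in the subclones, and Gstm2 stands out in subclone 5 at 95.7 to 114.7 TPM.

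Among the subclones alone, without WT5, 2 of 35 members were called at an adjusted p below 0.01 and a range of subclone means above 2-fold (5.71%), against 5.46% of 14031 genes. Both were glutathione transferases, a class that holds 8 of the 35 members tested. At the adjusted p alone 16 members differed (45.7%), against 24.3% of all genes. Gstm2, a mu-class transferase, was at 56.0, 50.9, 51.7 and 51.2 TPM in subclone 1, at 52.7, 40.9, 47.2 and 50.1 in subclone 2, and at 61.8, 67.5, 66.0 and 66.6 in subclone 3. It was at 62.5, 59.8, 59.9 and 58.0 TPM in subclone 4 and at 95.7, 107.1, 110.1 and 114.7 in subclone 5. Subclone 5 stood above all other libraries, and the means spanned 2.33-fold (log2 1.22, adjusted p = 6.44e-09, limma moderated F test).

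Gsta3 was at 3.22, 3.09, 2.97 and 2.59 TPM in subclone 1, at 2.57, 2.13, 1.88 and 1.85 in subclone 2, and at 2.16, 4.23, 3.03 and 2.99 in subclone 3. It was at 4.99, 5.83, 6.80 and 5.66 TPM in subclone 4 and at 4.64, 4.02, 5.97 and 5.23 in subclone 5. Subclones 4 and 5 overlapped each other and were mostly above the rest, with a span of 2.85-fold from subclone 2 to subclone 4 (log2 1.51, adjusted p = 4.70e-05). Against WT5 its difference was 1.62 in subclone 4 (SE 0.20, adjusted p = 0.000403) and 1.40 in subclone 5 (SE 0.22, adjusted p = 0.00235). The call in subclone 5 was lost with the unequal-variance test (adjusted p = 0.0134) and with the replicate number as a block (adjusted p = 0.0223).

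Gstm2 and Gstm1 belong to a cluster of mu-class genes on chromosome 3, which on GRCm38 runs from Gstm5 (chr3:107895821-107898686) to Gstm4 (chr3:108040408-108044894). In subclone 5 against the mean of the other four, Gstm2 (chr3:107981702-107986453) was higher by 0.97 (adjusted p = 2.55e-09) and Gstm1 (chr3:108012255-108017973) by 0.49 (adjusted p = 1.03e-07), while Gstm5 differed by 0.19 (adjusted p = 0.0929). Gstm3, which lies between Gstm5 and Gstm2, was called at 1.63 (adjusted p = 0.00537) but averaged only 0.355 TPM there, and 28.8% of its stretches are shared with other genes. Gstm7 and Gstm6 differed by 0.11 (adjusted p = 0.791) and 1.24 (adjusted p = 0.0531), and Gstm4 was listed at 0 in 27 of 28 libraries. Gstp1, on another chromosome, was also higher in subclone 5, by 0.47 (adjusted p = 7.24e-05), with 790.99 to 871.94 TPM against at most 678.52 TPM in any other subclone library.

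Each subclone was also set against the mean of the other four. The 1 member called was Mgst2 in subclone 4, at 3.54, 2.77, 4.79 and 2.08 TPM against 0.48 to 2.47 TPM in the other subclones (log2 1.35, SE 0.34, adjusted p = 0.00711). Its libraries overlapped those of subclone 3, and the call was lost without any of 10 single libraries (adjusted p 0.0101 to 0.0419). The percent of all genes called was 0.919, 0.934, 0.955, 1.9 and 1.39 for subclones 1 to 5. At the adjusted p alone, subclone 4 had 14 members higher and 1 lower, against 17.9% of all genes, 9.94% higher and 7.93% lower. Subclone 5 had 9 higher and 1 lower, against 14.5% of all genes, 6.73% higher and 7.78% lower. Subclone 1 had 4, subclone 2 had 6 and subclone 3 had 1 member past the threshold, all lower, against 4.51%, 5.81% and 4.93% of all genes, of which 1.98%, 3.16% and 2.69% were lower. These contrasts share the same fit and cancel out over the subclones for each gene. A gene high in some subclones therefore stands lower in others, and the counts depend on each other.

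In subclone 4 the higher members included 3 of the 4 genes of pentose phosphate NADPH supply, Pgd (0.26, adjusted p = 0.000135), Taldo1 (0.26, adjusted p = 0.00508) and Tkt (0.27, adjusted p = 0.000356). Gclm (0.33, adjusted p = 0.000125), Srxn1 (0.30, adjusted p = 0.00805) and Txnrd1 (0.17, adjusted p = 0.000292) were higher there too, and Gsr was lower (-0.19, adjusted p = 0.00273). Against WT5, 0 of the 4 pentose phosphate genes passed the p threshold in subclone 4, with a median log2 difference of -0.07. Pgd was lower than WT5 past that threshold in 4 subclones, Tkt in 3 and Taldo1 in 2. In subclone 5, Me1 (0.34, adjusted p = 0.000241), G6pdx (0.28, adjusted p = 0.000311), Gclc (0.25, adjusted p = 7.54e-06) and Txnrd1 (0.25, adjusted p = 7.60e-06) were higher and Keap1 was lower (-0.19, adjusted p = 0.000135). By rank, subclone 4 had the highest mean for 16 of the 35 members and subclone 5 for 13, while subclone 2 had the lowest for 18. Ranks over all genes were not taken, so these counts have no share beside them. Of all genes, 17.9% passed the p threshold in subclone 4, 14.5% in subclone 5 and 5.81% in subclone 2. Nfe2l2 did not differ past the threshold among the subclones (range 0.11, adjusted p = 0.173), nor did Hmox1 (range 0.09, adjusted p = 0.792).

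**Figure D4:**
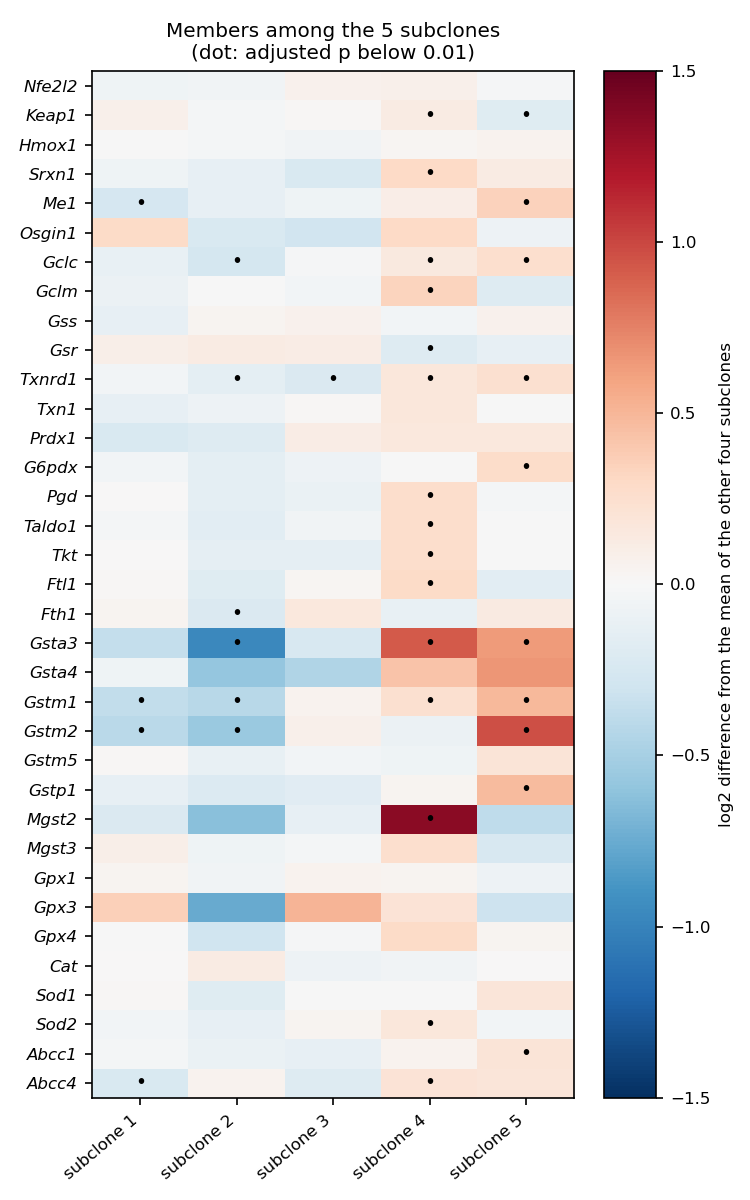
Log2 difference of each subclone from the mean of the other four for the 35 members tested (limma, 4 libraries a subclone), red for higher and blue for lower, with a dot at an adjusted p below 0.01. Dots number 15 in subclone 4 and 10 in subclone 5, nearly all on red, and 4, 6 and 1 in subclones 1 to 3, all on blue. The columns are not independent, because each subclone is part of the mean that the others are set against.

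Of the wider pathway lists, 10 of the 94 genes tested were called among the subclones, against 5.46% of all genes. The largest spans were those of Gstt2, a theta-class transferase (4.44-fold, adjusted p = 1.62e-05), Nfe2l3, which encodes a relative of NRF2 (3.30-fold, adjusted p = 9.37e-10), and Akr1b7, an aldose reductase-like enzyme (3.28-fold, adjusted p = 0.00627). Nfe2l3 averaged 4.61 ± 0.173 TPM in subclone 4 and 1.46 to 1.80 TPM in the others, and Gstt2 averaged 1.81 ± 0.341 TPM in subclone 4. Against WT5, 4, 1, 2, 2 and 3 of the 92 listed genes tested were called in subclones 1 to 5, against 3.12%, 2.68%, 3.97%, 5.32% and 3.67% of all genes. In subclone 1, Akr1b7 (2.80-fold), Msrb2, a methionine sulfoxide reductase (2.23-fold), and Ggt1 (2.21-fold) were higher and Nfe2l3 was lower (2.04-fold). Akr1c13, an aldo-keto reductase that shares 24.2% of its stretches with other genes, was higher in subclone 2 (2.58-fold). In subclone 3, its relative Akr1c14 was higher (2.13-fold) and the exporter Abcc3 lower (2.08-fold). Gstt2 was higher in subclones 4 (5.34-fold) and 5 (2.94-fold), and Msrb2 in subclone 4 (2.99-fold). The levels behind the largest of these folds were low, as WT5 averaged 0.3875 TPM of Gstt2 and 0.395 TPM of Akr1b7. In subclone 5, Akr1b7, with 15.83% of shared stretches, was higher (5.22-fold) and Gstk1, the kappa-class transferase, was lower (2.27-fold, adjusted p = 0.000168). Against the mean of the other subclones, 0, 2, 0, 3 and 4 of the 94 genes were called, against 0.919%, 0.934%, 0.955%, 1.9% and 1.39% of all genes. Gstm7 (2.745-fold) and Gstt2 (2.01-fold) were lower in subclone 2. In subclone 4, Gstt2 (3.21-fold) and Nfe2l3 (2.86-fold) were higher and Ggt1 (2.23-fold) was lower. Gstm3 (3.10-fold), Akr1b7 (2.37-fold) and Ptgr1 (2.025-fold) were higher and Gstk1 (2.20-fold) was lower in subclone 5.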

How the data were processed

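RNA had been sequenced in 28 libraries of mIMCD-3 cells, 4 in each of 7 groups taken from the sample labels. Per the methods and processing notes, the authors used STAR 2.7.3a with GRCm38 and an Ensembl annotation, estimated abundances with RSEM 1.3.1 and deposited them as TPM in a pair of tables over the same 45706 identifiers, of which 45143 are named in GENCODE release M21. TPM keeps no depth, so no counting error can be given.

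Tables were joined by identifier. Log2(TPM) without a pseudocount was taken for genes above 0 in all libraries compared, each library was centred on its median, and limma 3.58.1 in R 4.3.3 was fitted on all these genes with Benjamini-Hochberg adjustment. The tests were two-sided contrasts and a moderated F test among subclones, called at an adjusted p below 0.01 and above 2-fold. The z-score rule of the study was run beside it, with limma as its test, and the unequal-variance test named in the methods was an alternative. The fits were tested on simulated data. Other alternatives were the centring, pseudocount, filter, threshold, replicate block, shared fit, summing of copies and leaving out of each library. Shared sequence was any 50-base stretch of GENCODE M21 transcripts found in another gene, and close copies were summed as an alternative. Same-numbered libraries of different groups did not deviate together, so the numbers were not taken as pairs. Python 3.11.15 with numpy 2.4.6 and pandas 2.3.3 served for summaries.

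The members and lists were chosen with earlier results of these data known. By rule, values in every library are given for Nfe2l2, Keap1, Nqo1, Hmox1, Gclc, Gclm, Srxn1 and Txnrd1 in all groups, for members called in the groups compared, and for both members called among subclones. From the wider lists the rule names up to 3 genes per comparison and direction with the largest difference among those called, given here as fold changes, with means for some of them. Other mu-class transferases, Gstp1 in subclone 5 and the members named by the p threshold alone were chosen after their values were seen.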

Additional observations from a re-analysis of the deposited data

Results flagged for a closer look

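In 268 groups of 4 libraries that held differing values of a member, 18 had a library apart from the other 3 by Dixon's criterion. For normally distributed values chance gives this in about 1 of 20 groups, a rate that does not hold for values near 0 TPM. Subclone 4 replicate 3 was at 0.96 TPM of Nqo1, and subclone 4 replicate 2 at 0.23 TPM of Mgst1. In WT5 replicate 1, Gclc was at 23.77, Ftl1 at 335.29 and Fth1 at 1105.32 TPM, all below the other 3 libraries. In subclone 2 replicate 2, Gss was at 20.63 and Gsr at 141.64 TPM, also low. Subclone 1 held low values of Txnrd1 in replicate 3 (93.7 TPM) and of Txn1 in replicate 1 (319.56 TPM), and high values of Ftl1 in replicate 2 (446.03 TPM) and of Gstm2 in replicate 1 (55.96 TPM). Subclone 5 replicate 1 was low in Srxn1 (14.57 TPM) and Gstm1 (639.03 TPM), subclone 3 replicate 2 low in Pgd (47.19 TPM), and subclone 2 replicate 3 high in Mgst3 (56.13 TPM). Gsta1 was above 0 in a lone library of WT5 (0.07 TPM), subclone 2 (0.08 TPM) and subclone 4 (0.17 TPM), a pattern that always meets the criterion.

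The difference between subclones itself was tested with the moderated F test of limma, and Gsta3 and Gstm2 passed it with ranges of subclone means of 1.51 and 1.22 on the log2 scale.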

How the results depend on the processing

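The count of 11 members called between WT5 and polyclonal cells became 18 with genes above 0 TPM in any library and a pseudocount of 0.1 (17 higher and 1 lower, as the medians removed then lie elsewhere and all genes together stand 0.61 higher), 23 without a threshold on the difference, 6 with members summed with all genes that share 50 bases, and 1 with z-scores. It was 9 with close copies, a setting chosen after seeing the data, in which Ftl1 (0.04) and Sod2 (-0.88) lost their calls. The gene summed with Sod2 was the protein-coding Rps6ka2, whose own mean was higher in WT5. Leaving out each library in turn gave 10 to 11, with Me1 (0.99) lost without polyclonal replicate 2 and Gpx3 without polyclonal replicate 1 or 3 (adjusted p = 0.0110 and 0.0106), and with a pseudocount of 1, which gave 8, Gsta3, Gpx3 and Me1 lost theirs. Gpx3 also lost its call with the unequal-variance test (adjusted p = 0.0169). The 1 member past the z-score rule became 0 with either kind of sum, 2 with rescaling to nuclear protein-coding genes, with a pseudocount of 0.1 or 1 or with all libraries in one fit, 3 with a mean TPM of at least 1, and 26 without the threshold on the difference. Without each library in turn it was 1 to 1. With genes above 0 TPM in any library, all 39 members were tested, and 6556 of all genes were called higher and 2352 lower in WT5. Shares of all genes under the other settings are not given in this section, so its counts show only how the calls move.

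The 2 members called against WT5 became 0 with z-scores and 25 without the threshold on the difference, and 2 to 3 without each library in turn. Summed with all sharing genes, Gsta3 reversed to -0.25 in subclone 4 and -0.19 in subclone 5, although its shared stretches make up 0.273% of its own. It also lost its call in subclone 5 with the unequal-variance test (adjusted p = 0.0134). The 2 members called among subclones became 4 with genes above 0 in any library, 16 without the threshold, 1 with all sharing genes and 0 with z-scores, and 2 to 3 without each library in turn. The 1 member called against the other four, Mgst2, became 0 uncentred, with z-scores, with a pseudocount of 1 and with all sharing genes, 21 without the threshold, and 0 to 2 without each library in turn, 2 without subclone 3 replicate 1 and 0 without any replicate of subclone 1, replicates 1 to 3 of subclone 4 or replicates 1 and 4 of subclone 5. Without subclone 2 replicate 1, Mgst2 also lost its call. The cause of these moves was not tested unless stated.

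With the replicate number as a block, although same-numbered libraries were not found to be paired (correlations of deviations between -0.328 and 0.153), the counts were 11 between WT5 and polyclonal cells, 1 by the z-score rule, 2 against WT5, 2 among subclones and 0 against the other four. Gsta3 in subclone 5 against WT5 (adjusted p = 0.0223) and Mgst2 (adjusted p = 0.0112) lost their calls under the block. Depth is unknown in every comparison. The read type limits the comparison of WT5 with polyclonal cells, and the separate table that of the subclones with WT5.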
